A study of Mus musculus with 10 samples.

Results

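Ltf, Ngp, Camp, Lcn2, Cd177, Mmp8, Mmp9, Olfm4, Chil3 and Fcnb are genes of the specific (secondary) and gelatinase (tertiary) granules of the neutrophil. They were taken as a named list, each through its probe annotation on the Affymetrix Mouse Genome 430 2.0 array, and all 10 were found among the 18193 mouse genes of the array. Expression was read in total RNA from cultured mouse leukemia stem cell lines, on 1 array per sample and 10 arrays in all. 2 arrays held RH-RAS lines 1 and 3 grown for 4 days in 1 µM SGC0946, which blocks Dot1l, an enzyme that methylates histone H3. 3 arrays held NUP98-JARID1A lines 1, 2 and 3, and 1 array held an MLL-AF9 line, each transformed by the fusion gene it is named for. 4 arrays held untreated RH-RAS lines 1 to 4, derived independently of each other by expressing the DNA methyltransferase DNMT3A with the R882H mutation and the GTPase NRAS with G12D. The treated RH-RAS lines carry the same mutant pair, and every line grew in culture medium with serum and stem cell factor. The labels do not say whether the NUP98-JARID1A lines were derived separately, so for them a p-value measures only the spread between these samples.

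A neutrophil fills its granules in the order in which the proteins are made. Azurophil granules form first, in promyelocytes, with myeloperoxidase and the serine proteases. Specific granules follow in myelocytes and metamyelocytes, and gelatinase granules after them, when cells have stopped dividing. Transcription factors of the C/EBP family, C/EBP epsilon above all, drive the specific granule genes, and mice or people that lack C/EBP epsilon make neutrophils without specific granules. The products are antimicrobial proteins, iron-binding proteins and the metalloproteases that a neutrophil uses to cross tissue.

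Several of these genes lie on the same chromosome. In the RefSeq annotation of build GRCm38.p6 the starts of Camp and Ngp were 570 kb apart on chromosome 9, those of Ngp and Ltf 599 kb apart, and those of Fcnb and Lcn2 4303 kb apart on chromosome 2. RefSeq promoters were matched for 9 of the 10 genes, all but Mmp9. The 250 bases before the start were searched on both strands for TTNNGNAA, the core of the C/EBP recognition sequence. It was found in 8 of the 9 promoters and in 36.9% of the 32841 mouse promoters of the same length. Camp was the promoter without these letters. GAGGAA, a core bound by the myeloid factor PU.1 (Spi1), was found in 5 of the 9 promoters and in 23.3% of all promoters, and no match of one overlapped a match of the other. Promoters of 4 members are shown because Ngp, Ltf and Camp share a stretch of chromosome 9 and were high together in the NUP98-JARID1A lines, and because Mmp8 was the member that rose with SGC0946. They read 5′ to 3′ on the strand of the gene, with matches to TTNNGNAA on either strand in capitals: Ngp at chr9:110419558-110419807 on the plus strand, Ltf at chr9:111019042-111019291 on the plus strand, Camp at chr9:109849457-109849706 on the minus strand and Mmp8 at chr9:7558179-7558428 on the plus strand.
Ngp: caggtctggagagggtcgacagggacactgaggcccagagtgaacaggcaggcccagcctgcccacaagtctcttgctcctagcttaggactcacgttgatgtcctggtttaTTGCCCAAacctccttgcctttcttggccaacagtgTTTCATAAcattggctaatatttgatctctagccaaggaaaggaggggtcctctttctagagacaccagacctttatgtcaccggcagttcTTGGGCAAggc
Ltf: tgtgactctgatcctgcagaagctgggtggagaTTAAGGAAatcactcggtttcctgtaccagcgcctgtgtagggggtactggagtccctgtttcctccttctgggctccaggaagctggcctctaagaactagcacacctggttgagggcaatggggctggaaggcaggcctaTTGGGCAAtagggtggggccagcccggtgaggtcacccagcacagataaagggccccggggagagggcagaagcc
Camp: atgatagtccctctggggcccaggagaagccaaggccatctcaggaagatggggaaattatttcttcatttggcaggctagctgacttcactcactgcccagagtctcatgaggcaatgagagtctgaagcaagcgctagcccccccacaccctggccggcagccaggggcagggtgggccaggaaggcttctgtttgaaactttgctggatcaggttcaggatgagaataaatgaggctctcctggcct
Mmp8: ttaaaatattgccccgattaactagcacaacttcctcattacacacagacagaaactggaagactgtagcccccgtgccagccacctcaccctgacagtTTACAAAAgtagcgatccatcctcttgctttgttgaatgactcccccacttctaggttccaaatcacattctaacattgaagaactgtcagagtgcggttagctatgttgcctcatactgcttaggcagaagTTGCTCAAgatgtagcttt
The matches are letters in a window and no binding was measured.

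The deposited values were log2 intensities made with RMA, a method that removes background, sets all arrays to 1 common distribution and merges the probes of a probe set. Array medians lay between 5.72 and 5.82, and a probe set well below them is near the bottom of what the array resolves. RMA compresses such low values, so a fold change against them is understated. Among the untreated RH-RAS arrays, line 4 stood apart: over the 11992 genes tested it correlated at 0.986 to 0.988 with lines 1 to 3, which correlated at 0.995 to 0.997 with each other. The NUP98-JARID1A arrays correlated at 0.962 to 0.971. Kit, the stem cell factor receptor of blood progenitors, lay above the array median on all 10 arrays, between 8.56 and 12.27.

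The first comparison set the NUP98-JARID1A lines against the untreated RH-RAS lines. Of the 10 granule genes, 8 were higher in NUP98-JARID1A cells and 2, Mmp9 and Fcnb, did not pass the test (limma, Benjamini-Hochberg adjusted p threshold 0.05). Differences of the 8 ran from 18.4-fold to 146-fold. Many other genes also differed between these lines: 51% of the genes tested passed and 32.5% were higher in NUP98-JARID1A. The median difference was 5.30 on the log2 scale over the 10 members, against 0.10 over all genes tested, which describes the list and is not a test of it. In RNA from whole cultures, more cells that express a gene and more RNA per cell cannot be told apart.

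Ngp encodes neutrophilic granule protein, a relative of the cathelicidins. It read 14.25, 9.85 and 12.71 in NUP98-JARID1A lines 1, 2 and 3, against 5.44, 5.45, 5.10 and 5.47 in untreated RH-RAS lines 1 to 4. The lowest NUP98-JARID1A line was above every RH-RAS line. The difference was 6.91 ± 0.89 on the log2 scale (SE, n = 3 and 4; limma adjusted p = 0.000678). Camp encodes the cathelicidin itself, an antimicrobial peptide precursor stored in specific granules. Its values were 12.77, 7.24 and 9.32 in the NUP98-JARID1A lines and 5.40, 5.72, 5.58 and 5.59 in the untreated RH-RAS lines. The groups did not overlap, but NUP98-JARID1A line 2 lay closer to the RH-RAS lines than to NUP98-JARID1A line 1. The difference was 4.20 ± 1.11 (limma adjusted p = 0.0160). Both groups share the estimate of the error for each gene, but their spread was unequal. The SD over NUP98-JARID1A and untreated RH-RAS lines was 2.79 and 0.130 for Camp, 3.69 and 0.081 for Chil3, and 2.45 and 0.266 for Cd177. The SE of these genes is therefore smaller than the NUP98-JARID1A spread alone would give. Whether they would pass with a separate spread for each group was not tested.

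Ltf and Lcn2 encode proteins that withhold iron from microbes, lactoferrin by binding iron and lipocalin 2 by binding bacterial siderophores. Ltf read 12.71, 9.08 and 11.79 in NUP98-JARID1A lines 1 to 3, against 5.45, 5.70, 5.49 and 5.64 in untreated RH-RAS lines 1 to 4, a difference of 5.63 ± 0.75 (limma adjusted p = 0.000798). Lcn2 read 12.20, 8.53 and 11.60 in NUP98-JARID1A and 3.41, 3.65, 3.57 and 3.70 in untreated RH-RAS, a difference of 7.19 ± 0.79, or 146-fold (adjusted p = 0.000336). Both genes were high in lines 1 and 3 and lower, though still above every RH-RAS line, in line 2.

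Olfm4, Cd177 and Chil3 varied in the same way. Olfm4, olfactomedin 4, is found in the specific granules of a subset of neutrophils. It read 11.51, 7.47 and 10.54 in NUP98-JARID1A and 3.07, 3.08, 3.16 and 2.96 in untreated RH-RAS, a difference of 6.77 ± 0.84 (limma adjusted p = 0.000564). Cd177 encodes a surface glycoprotein that is also stored in specific granule membranes in human neutrophils. Its values were 8.77, 5.37 and 10.11 in NUP98-JARID1A, against 3.49, 2.92, 3.32 and 3.47 in untreated RH-RAS, and the difference was 4.79 ± 0.98 (adjusted p = 0.00545). In line 2 it lay below the array median. Chil3, a chitinase-like protein (Ym1) that mouse neutrophils and macrophages store or secrete, read 12.16, 5.20 and 10.77 in NUP98-JARID1A and 3.32, 3.48, 3.31 and 3.40 in untreated RH-RAS. It had the widest gap within the NUP98-JARID1A group and a mean 63.9-fold higher, with an SE of 1.46 on the log2 scale (adjusted p = 0.0115). Its line 2 value also lay below the array median. A further probe set, annotated to both Chil4 and Chil3, gave a difference of 4.49.

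Mmp8, neutrophil collagenase, was the member with the least spread in the NUP98-JARID1A lines. It read 10.76, 9.62 and 9.86 there, against 5.02, 4.91, 5.21 and 5.29 in untreated RH-RAS lines 1 to 4. The difference was 4.97 ± 0.26, or 31.4-fold (limma adjusted p = 1.9e-05). Mmp9, gelatinase B of the tertiary granules, read 8.53, 6.16 and 6.61 in NUP98-JARID1A and 5.71, 6.16, 6.01 and 6.19 in untreated RH-RAS. NUP98-JARID1A lines 1 and 3 were above the RH-RAS range and line 2 was within it, and the difference of 1.08 ± 0.51 did not pass (adjusted p = 0.118, 95% interval -0.12 to 2.29). Mmp9 has a second probe set, which gave 1.48 and passed where the probe set of largest variance was used (adjusted p = 0.0235). Fcnb, ficolin B, is a lectin of myeloid cells that recognises microbial sugars. It read 9.16, 5.97 and 6.88 in NUP98-JARID1A and 6.09, 5.55, 5.77 and 5.72 in untreated RH-RAS, so that line 2 fell within the RH-RAS range, and its difference of 1.55 ± 0.67 did not pass (adjusted p = 0.0882, 95% interval -0.001 to 3.11). Without NUP98-JARID1A line 2 both passed, Mmp9 at 1.55 (adjusted p = 0.0366) and Fcnb at 2.24 (adjusted p = 0.0177). The groups did not overlap for the same 8 genes that passed, all higher in NUP98-JARID1A. Over all genes tested 34.8% were without overlap and higher in NUP98-JARID1A. For 7 members all 6 RH-RAS arrays gave values under the array median, and these genes entered the test through their level in the other lines.

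**Figure D1:**
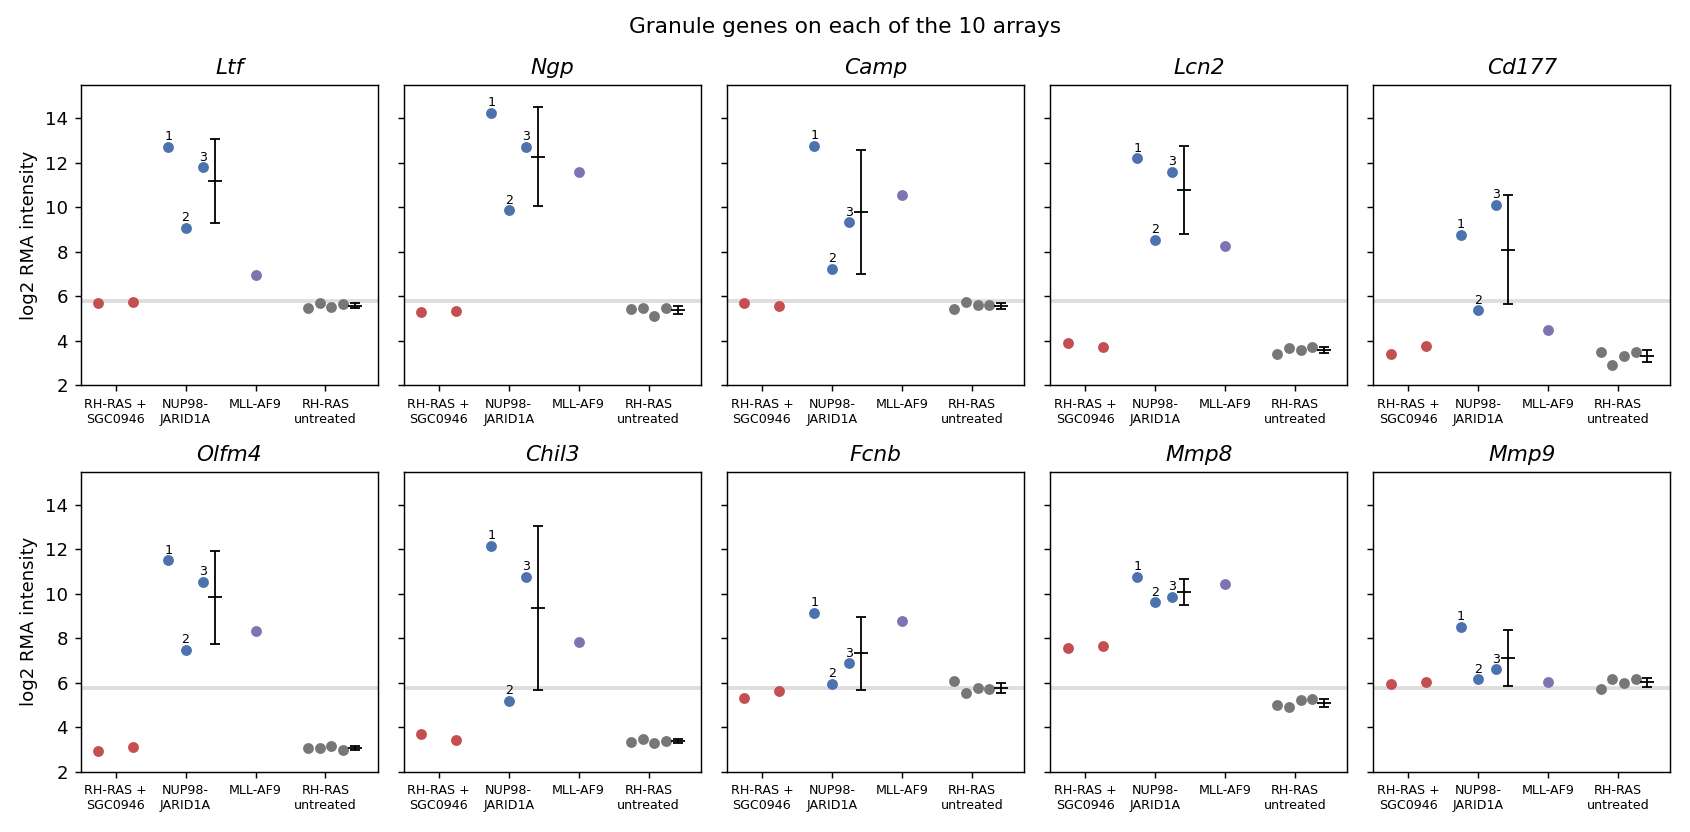
Log2 RMA intensity of the 10 granule genes (vertical axis) on each array, by group along the horizontal axis. Each point is 1 array, numerals give the NUP98-JARID1A line, bars are the mean and SD of the NUP98-JARID1A (n = 3) and untreated RH-RAS (n = 4) groups, and the grey band marks the range of the array medians (5.72 to 5.82). NUP98-JARID1A line 2 is the lowest of its group in every panel, and Mmp8 is the panel in which the SGC0946-treated points lie clear of the untreated ones.

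The NUP98-JARID1A lines differed among themselves in these genes. Line 2 was lowest for 10 of 10 members, and the order was line 1, line 3, line 2 in 9 of 10, with Cd177 highest in line 3. Line 1 exceeded line 2 by 1.14 (Mmp8) to 6.97 (Chil3) on the log2 scale, with a median of 3.65. All 10 members were at least 2-fold higher in line 1 than in line 2, as were 3.26% of all genes tested, whose median was -0.02. The SD over the 3 lines had a median of 2.04 over the members and 0.163 over all genes tested, while over the untreated RH-RAS lines it was 0.152 for the members and 0.120 for all genes. These are descriptions of single arrays, with no test of one line against another. For 7 members every RH-RAS value lay under the array median, where RMA compresses values. Their small RH-RAS SD therefore does not show an even level of expression.

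Other neutrophil genes were read in the same lines. S100A8 and S100A9, the calprotectin subunits of the neutrophil cytosol, were high in all of them. S100a8 read 14.28, 12.78 and 14.20 in NUP98-JARID1A lines 1, 2 and 3. Both genes were at least 2-fold lower in line 2 than in line 1. Some other late neutrophil genes dipped further in line 2. Stfa3 read 12.84, 8.31 and 10.41, and Stfa2l1 10.80, 7.67 and 9.49. Padi4, which citrullinates histones, read 11.31, 8.58 and 10.02. Line 1 was at least 2-fold above line 2 for 5 of 7 late neutrophil genes, 6 of 13 further granule and vesicle genes (among them Fpr2, Lrg1 and Pglyrp1), 2 of 8 azurophil genes and 1 of 9 regulators and receptors. The azurophil protease cathepsin G (Ctsg) read 13.97, 13.53 and 13.75, and myeloperoxidase (Mpo) 12.98, 13.66 and 14.05. Line 2 was thus close to its neighbours for these azurophil genes. Within the azurophil list the 2 that dipped in line 2 were neutrophil elastase (Elane), at 11.49, 7.65 and 9.32, and Ms4a3, a membrane protein of granulocyte and monocyte progenitors, at 11.94, 8.33 and 11.18. The median SD over the 3 lines was 0.331 for 8 azurophil genes, 0.868 for 7 late neutrophil genes and 0.352 for 9 granulocyte regulators and receptors.

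The MLL-AF9 array, which has no replicate and was not tested, was also high in granule genes. 9 of the 10 were at least 2-fold above the RH-RAS mean and above all 4 untreated RH-RAS lines, as were 7.21% of all genes tested, and Mmp9 was the exception. Ngp read 11.60 on the MLL-AF9 array, against 5.10 to 5.47 in untreated RH-RAS. Mmp8 read 10.44 against 4.91 to 5.29, and Camp 10.55 against 5.40 to 5.72. The difference from the RH-RAS mean was 6.24 for Ngp, 5.33 for Mmp8, 5.28 for Olfm4, 4.98 for Camp, 4.68 for Lcn2, 4.45 for Chil3 and 3.00 for Fcnb. It was small for Ltf (1.40) and Cd177 (1.19), and 0.04 for Mmp9. Cd177 read 4.49 on the MLL-AF9 array, below that array's median of 5.78. Azurophil genes were high on this array too, with Elane at 13.18 and Ms4a3 at 12.97, and their mean level was 13.46 in MLL-AF9, between 11.77 and 12.81 in NUP98-JARID1A and between 9.82 and 10.45 in untreated RH-RAS.

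The MLL-AF9 and NUP98-JARID1A lines did not hold the granule genes in the same proportions. MLL-AF9 was below all 3 NUP98-JARID1A lines, and at least 2-fold below their mean, for Ltf, Lcn2, Cd177 and Mmp9, a count of 4 of 10 where 6.64% of all genes tested did the same. Ltf read 6.97 on the MLL-AF9 array, against 12.71, 9.08 and 11.79 in the NUP98-JARID1A lines. Camp, Fcnb and Mmp8 ran the other way against lines 2 and 3, though not against line 1. Camp read 10.55 in MLL-AF9, above NUP98-JARID1A lines 2 (7.24) and 3 (9.32), and Fcnb 8.78, above lines 2 (5.97) and 3 (6.88). Mmp8 read 10.44, above lines 2 (9.62) and 3 (9.86). By the same rule in the other direction, above all 3 lines and at least 2-fold above their mean, 0 members were counted and 3.14% of genes, and 9.78% of genes were apart in either direction. Set against NUP98-JARID1A line 2 alone, the MLL-AF9 array was higher by 3.32 for Camp and lower for Ltf by a difference of -2.12. Without line 2 the count of members below NUP98-JARID1A became 7, with Ngp, Olfm4 and Chil3 added, and the share of all genes 7.23%. Without line 1 it was 3 below (7.38% of genes), without Mmp9, and Camp and Fcnb were counted above (3.8% of genes).

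**Figure D2:**
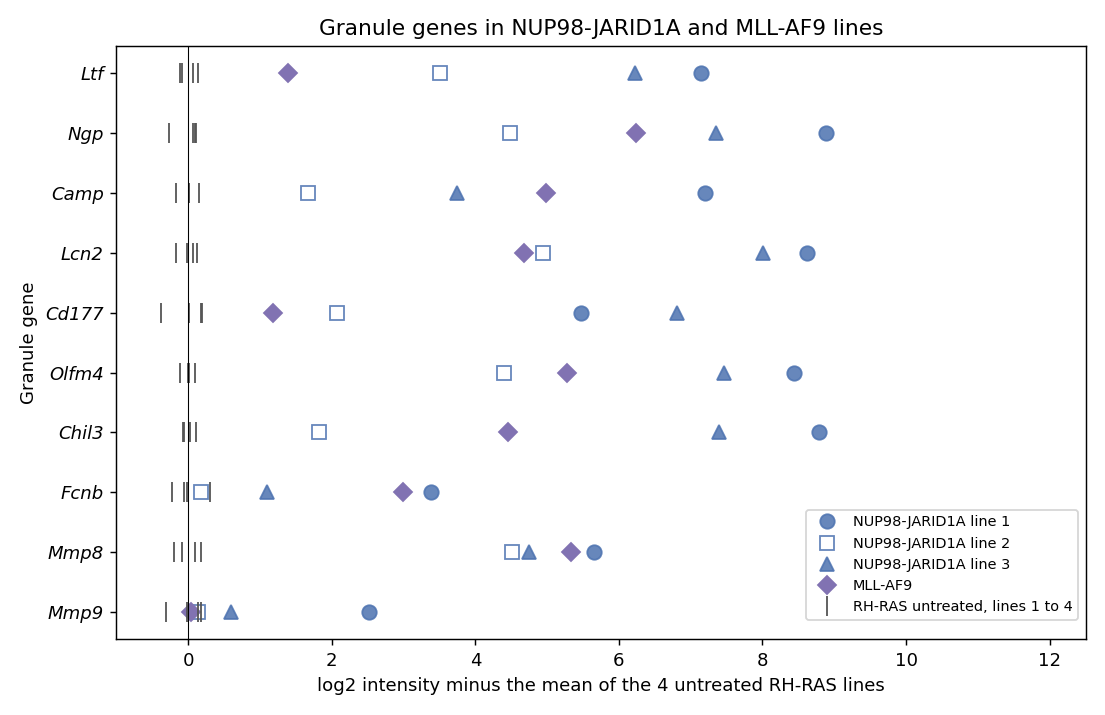
Difference from the mean of the 4 untreated RH-RAS lines (horizontal axis, log2 intensity) for each granule gene (vertical axis) in NUP98-JARID1A lines 1, 2 and 3 and in the MLL-AF9 line. Each marker is 1 array, and vertical ticks are the untreated RH-RAS lines. MLL-AF9 lies left of all NUP98-JARID1A markers for Ltf and near the upper ones for Mmp8 and Fcnb.

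The MLL-AF9 culture differed from the others in a further marker set. Eosinophil granule genes were high on that array and on no other: Prg2, eosinophil major basic protein, read 12.05 in MLL-AF9, against 4.18 to 4.56 in NUP98-JARID1A and 3.95 to 4.28 in untreated RH-RAS. Epx, eosinophil peroxidase, read 9.70 and Prg3, a related basic protein, 8.27. Of the 7 eosinophil and mast cell markers on the array, 4 stood at least 2-fold above every other array: Epx, Prg2, Prg3 and Ms4a2 (5.99). Cpa3, a mast cell protease, read 9.09 and was also highest on this array. The mean level of all 7, Kit and Cpa3 among them, was 8.71 in MLL-AF9. It was 5.88 to 6.20 in NUP98-JARID1A and 5.52 to 5.82 in untreated RH-RAS. Il5ra, the eosinophil interleukin 5 receptor, read 4.49, below the array median. The part of these markers in the granule gene values was not tested.

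The second comparison set RH-RAS lines 1 and 3 after SGC0946 against the same lines untreated. The labels do not state whether untreated cultures received vehicle, so inhibitor and any vehicle cannot be told apart. 1 of the 10 rose, Mmp8, and the other 9 did not pass; over all genes tested 12% passed and 6.84% rose. Mmp8 read 7.55 and 7.66 in SGC0946-treated lines 1 and 3, against 5.02 and 5.21 in the same lines untreated. The treated arrays lay above all 4 untreated lines, the highest of which read 5.29, and below the 9.62 of the lowest NUP98-JARID1A line. The change was 2.49 ± 0.34 on the log2 scale, or 5.61-fold (SE, n = 2 arrays in each arm; limma adjusted p = 0.00659), with 2.53 in line 1 and 2.45 in line 3. Leaving out either treated array or untreated line 1 or 3 kept the change at 2.40 to 2.58 but took its adjusted p to between 0.0584 and 0.0711. With the cell line as a block 867 genes passed over all tested, in place of 1435, and Mmp8 was still among them.

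The other 9 granule genes lay near their untreated values. Ltf read 5.67 and 5.74 in treated lines 1 and 3, against 5.45 and 5.49 untreated, and Lcn2 read 3.90 and 3.71 against 3.41 and 3.57. Both pairs stayed below the array median. The changes of the 9 members that did not pass ran from -0.44 (Fcnb) to 0.31 (Lcn2), and Ngp changed by 0.04. Their SE in this fit, 0.663 to 1.92, carries the wide spread of the NUP98-JARID1A lines, which share the estimate of the error. With the 6 RH-RAS arrays alone, an alternative added after the data were seen, the SE was 0.084 to 0.213. The same 9 did not pass there (lowest adjusted p = 0.0870, over 22.9% of genes called), and Mmp8 passed at 2.49 ± 0.15 (limma adjusted p = 0.000566). Of the 9, 3 were under an unadjusted p of 0.05 in that fit, with 95% intervals of 0.03 to 0.44 for Ltf, 0.05 to 0.57 for Lcn2 and -0.82 to -0.05 for Fcnb, and the other 6 intervals held 0 and lay between -0.35 and 0.69.

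**Figure D3:**
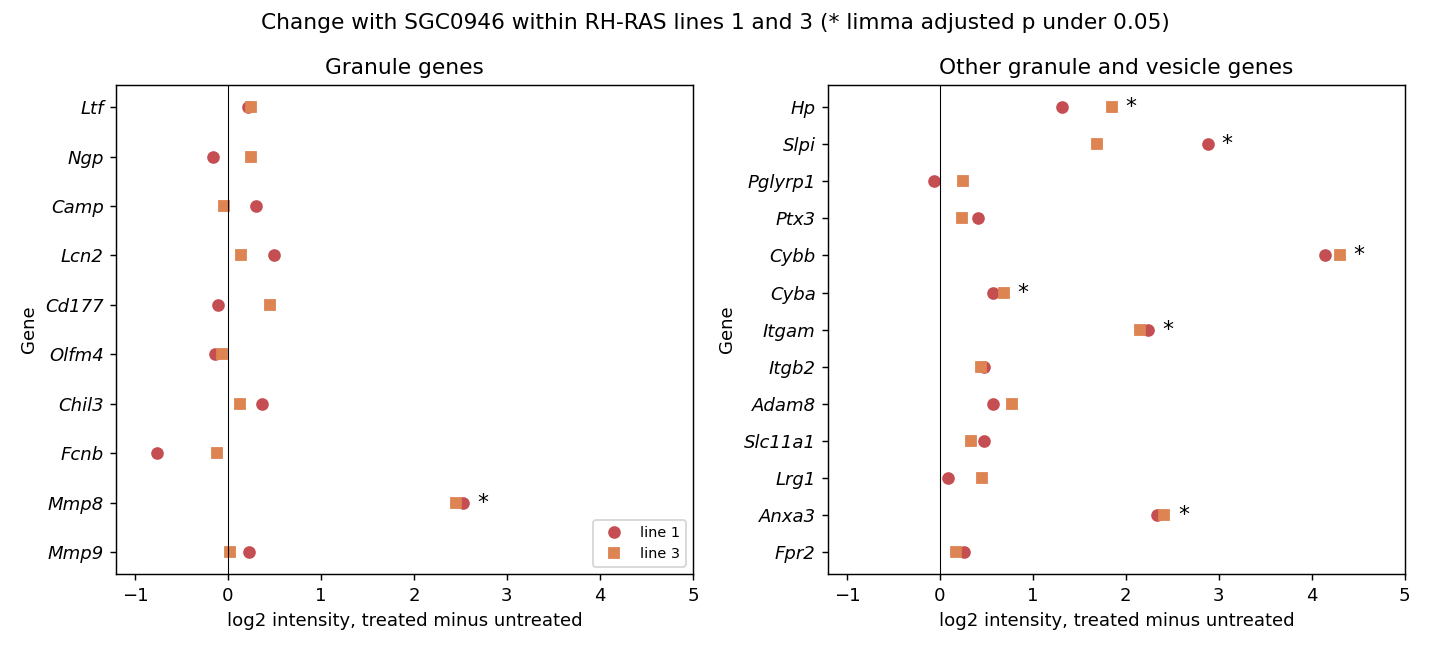
Change in log2 intensity, SGC0946-treated minus untreated (horizontal axis), within RH-RAS line 1 (circles) and line 3 (squares) for the granule genes (left) and for other granule and secretory vesicle genes (right). An asterisk marks a limma adjusted p under 0.05. Of the granule genes only Mmp8 is marked, at 2.49, while 6 of the 13 other genes are.

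A second list held further genes of the neutrophil granules and secretory vesicles, several of them also carried in specific or gelatinase granules. Of 16 listed, 13 were tested, 6 rose and 7 did not pass, with a median of 0.63 against 0.15 for the members and 0.02 for all genes. Cybb, the catalytic subunit of the phagocyte NADPH oxidase, rose by 4.22 ± 0.60 (limma adjusted p = 0.00736), the annexin Anxa3 by 2.37 ± 0.33 (adjusted p = 0.00681) and the protease inhibitor Slpi by 2.29 ± 0.42 (adjusted p = 0.0169). Of 8 azurophil genes tested, 2 rose, 1 fell and 5 did not pass: proteinase 3 (Prtn3) rose by 2.09 ± 0.33 and cathepsin C (Ctsc), which activates the granule proteases, by 1.31 ± 0.12, while the granule proteoglycan serglycin (Srgn) changed by -0.72 ± 0.15 (adjusted p = 0.0272, and 0.0547 with the cell line as a block). Ctsg changed by 1.12 ± 0.53 and did not pass (adjusted p = 0.233). At the same change it passed with only the 4 arrays of lines 1 and 3 (limma adjusted p = 0.0016). It also passed without untreated line 4 (limma adjusted p = 0.0143). Of 7 late neutrophil genes 0 passed in limma at the adjusted threshold (1 at an unadjusted p under 0.05), and their median was 0.06. Their SE, from 0.228 (Trem1) to 1.19 (Stfa3), also carries the NUP98-JARID1A spread, so this count is not on equal terms with the others. Il1b, at 0.78 ± 0.30, passed with only the 4 arrays of lines 1 and 3 (limma adjusted p = 0.0227). S100a8 read 4.59 and 4.58 in treated lines 1 and 3, against 4.63 and 4.46 untreated. The difference between lists was not tested.

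Among granulocyte regulators and receptors, 4 of the 9 tested rose and 5 did not pass (6 of 9 were under an unadjusted p of 0.05). Cebpd rose by 2.35 ± 0.28 (limma adjusted p = 0.00520), Cebpb by 1.33 ± 0.32 (adjusted p = 0.0385) and Spi1, which encodes PU.1, by 1.21 ± 0.12 (adjusted p = 0.00350). Csf3r, the receptor for granulocyte colony-stimulating factor, rose by 1.03 ± 0.24 (adjusted p = 0.0346), with 7.37 and 7.33 in the treated lines against 6.31 and 6.34 untreated. Gfi1, a repressor that granulocyte development needs, read 7.57 and 7.50 in the treated lines against 8.44 and 8.39 untreated, and its change of -0.88 ± 0.27 did not pass (adjusted p = 0.0796). With the cell line as a block Cebpb (adjusted p = 0.0689) and Csf3r (adjusted p = 0.0692) lost their calls. Monocyte and macrophage markers rose beside them, 9 of 10 tested, by 5.10 ± 0.69 for the mannose receptor Mrc1 and 4.90 ± 0.67 for the receptor Csf1r. Their mean level was 11.28 and 11.40 in treated lines 1 and 3, against 7.70 and 7.67 in the same lines untreated. Cd14, the endotoxin co-receptor, also rose, but lost its call once the line was blocked (adjusted p = 0.0549). The part of these markers in the change of Mmp8 was not tested.

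The remaining marker lists moved as follows with SGC0946. The progenitor receptor Kit fell by 1.98 ± 0.19 and Cpa3, a mast cell protease, by 2.24 ± 0.52, so that both tested genes of the eosinophil and mast cell list fell. Cpa3 did not pass once the line was blocked (adjusted p = 0.0662). Of 6 lymphoid genes 4 fell and 2 did not pass, and of 5 erythroid and megakaryocyte genes 0 passed in limma (0 at an unadjusted p under 0.05 too). Like Mmp8, the genes Cybb, Anxa3, Prtn3, Srgn, Cebpb, Csf3r, Mrc1, Cd14, Csf1r and Cpa3 did not pass when either treated array or untreated line 1 or 3 was left out. Slpi did not pass without either treated array or untreated line 1, Cebpd without either treated array or untreated line 3, and Ctsc, Spi1 and Kit without treated line 3.

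The same lists were counted in the NUP98-JARID1A lines, where 32.5% of all genes tested were higher and 51% passed in either direction. This comparison shares untreated lines 1 and 3 with the SGC0946 comparison. Of the 13 other granule and vesicle genes, 12 were higher than in untreated RH-RAS and 1 did not pass. Haptoglobin (Hp) was higher by 4.92 ± 0.28, the peptidoglycan-binding protein Pglyrp1 by 4.84 ± 0.70 and Anxa3 by 4.53 ± 0.30. Azurophil genes were higher in 5 of 8, with 3 not passing, led by Ms4a3 (5.08 ± 0.78), Ctsg (5.06 ± 0.45) and Elane (4.16 ± 0.77; limma adjusted p = 0.00337). Late neutrophil genes were higher in 6 of 7, with S100a9 at 9.67 ± 0.38 and S100a8 at 9.23 ± 0.34.

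Of the regulators, 7 of 9 were higher in NUP98-JARID1A than in untreated RH-RAS, 1 was lower, the zinc finger factor Klf5 (-2.04 ± 0.43), and 1 did not pass. Csf3r was higher by 3.46 ± 0.19, Cebpd by 2.47 ± 0.27 and Cebpa, the C/EBP factor of early granulocyte commitment, by 2.37 ± 0.27. Cebpe was not analysed here. Monocyte markers were mixed, with 4 of 10 higher, 2 lower and 4 not passing, and a mean level of 9.17 to 9.94 in the NUP98-JARID1A lines against 7.67 to 9.13 in untreated RH-RAS, where line 4 was the highest. The lysozyme Lyz2 was higher by 4.76 ± 0.43, the macrophage receptor Adgre1 by 3.93 ± 0.43 and Csf1r by 3.44 ± 0.61. The lower ones were Klf4 (-1.32 ± 0.32; limma adjusted p = 0.0118) and Fcgr1 (-1.16 ± 0.40; limma adjusted p = 0.0446). Kit was higher by 1.68 ± 0.19, while the other tested gene of the eosinophil and mast cell list, Cpa3, did not pass (-0.92 ± 0.42; adjusted p = 0.107). It passed without NUP98-JARID1A line 2 and without untreated line 4. Of 6 lymphoid genes 3 were lower, 1 was higher, the factor Gata3 (1.59 ± 0.21), and 2 did not pass, and of 5 erythroid and megakaryocyte genes 2 were higher, 1 was lower and 2 did not pass. One of the higher ones, the platelet glycoprotein Gp9 (0.36 ± 0.11; adjusted p = 0.0333), lost its call without NUP98-JARID1A line 2 or 3, and without any 1 of the untreated RH-RAS lines (adjusted p = 0.0553 to 0.101 over these arrays).

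Over the 10 arrays the members followed each other. Pearson's r for the 45 pairs ran from 0.553 (Mmp8 and Mmp9) to 0.996 (Ngp and Olfm4), with a median of 0.875 and 19 pairs over 0.9. These correlations describe 10 arrays that share lines and groups, and carry no test. The mean of the centred member values was 4.71, 0.88 and 3.45 in NUP98-JARID1A lines 1, 2 and 3, 1.76 in MLL-AF9, -1.64 and -1.57 in SGC0946-treated lines 1 and 3, and between -1.93 and -1.83 in the untreated RH-RAS lines. It placed MLL-AF9 between NUP98-JARID1A lines 2 and 3.

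The 8 genes outside the list whose profile was most like that mean were Slfn4, Fn1, Micall2, Mcfd2, Lrrk2, Ppm1h, Selenos and Mcemp1, with r between 0.986 and 0.992 over the 10 arrays. Slfn4, a schlafen family gene of myeloid cells, read 8.85, 6.34 and 8.66 in NUP98-JARID1A lines 1 to 3 and 7.19 in MLL-AF9, against 3.81 to 4.00 in untreated RH-RAS. Fn1, fibronectin, read 10.46, 8.06 and 10.44 in NUP98-JARID1A and 8.80 in MLL-AF9, against 5.62 to 6.10 in untreated RH-RAS. Their values follow from the choice by likeness. Among the listed genes the stefin Stfa2l1 reached 0.981, the granule protein Lrg1 0.963 and the formyl peptide receptor Fpr2 0.962. Of the regulators Cebpa came closest at 0.930, followed by Csf3r at 0.902, Gfi1 at 0.860, Cebpb at 0.779, Spi1 at 0.742 and Cebpd at 0.739.

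**Figure D4:**
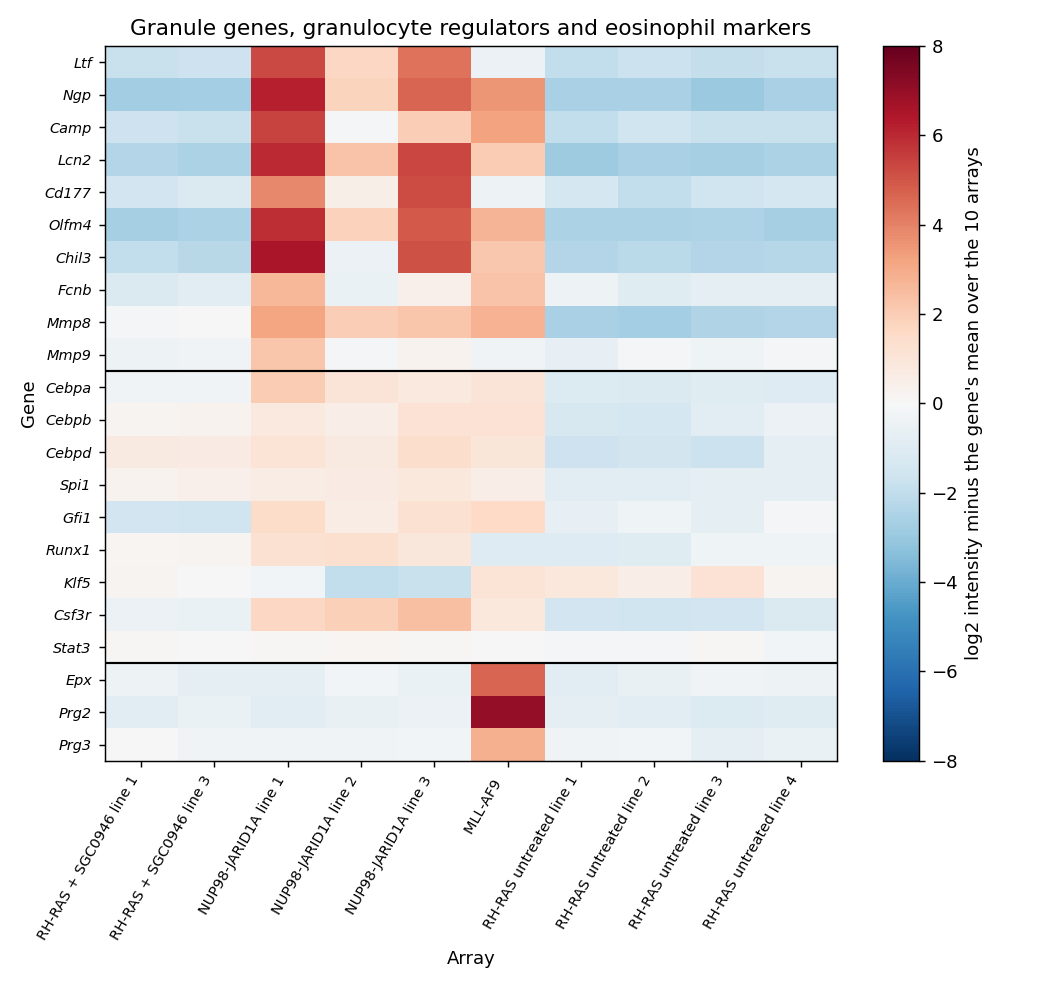
Log2 intensity of the granule genes, granulocyte regulators and eosinophil markers (vertical axis) on the 10 arrays (horizontal axis), each gene centred on its own mean over the arrays, with the colour scale in log2 units. The granule genes are highest in NUP98-JARID1A line 1, except Cd177 in line 3, and Epx, Prg2 and Prg3 are high on the MLL-AF9 array.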

How the data were processed

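Total RNA of 10 samples was measured on 1 Affymetrix Mouse Genome 430 2.0 array each. The authors deposited log2 intensities, summarised by probe set with RMA per the submitters' processing notes. No RMA version is stated in the sources used here. The sorted columns differed by at most 0.163, so no normalization was added. Of 45101 probe sets, 34958 had 1 gene symbol in the array annotation, 932 several and 9211 were not listed. For 9010 of the 18193 genes several probe sets existed, and the brightest on average was kept. Genes above the median of at least 2 arrays were tested, 11992 in all.

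Fits used limma 3.58.1 (lmFit, eBayes) in R 4.3.3, with Benjamini-Hochberg adjustment over all genes tested and a threshold of 0.05. The SGC0946 effect came from all 10 arrays with 5 coefficients, treated minus untreated lines 1 and 3, and the NUP98-JARID1A difference from the 8 arrays without inhibitor. On simulated data, of 100 genes changed by 1.5 on the log2 scale the SGC0946 fit called 82 and the NUP98-JARID1A fit 97. Both called all 100 changed by 3. Each simulated gene had the same spread in every group. These rates therefore do not hold for the 9 members not called for SGC0946, whose SE was 0.663 to 1.92. Nor do they hold for the members in the NUP98-JARID1A fit. Their median SD was 2.04 over the NUP98-JARID1A lines and 0.152 over the untreated RH-RAS lines. The single MLL-AF9 array was not tested; genes were counted when at least 2-fold from the other group's mean and outside its range. Treated and untreated arrays of lines 1 and 3 are pairs of the same lines, and their deviations from the group means correlated at 0.292. The number of arrays limits the precision, and no scan dates were used.

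All 10 members were named, and from the lists of other granule and vesicle, azurophil, regulator, late neutrophil, monocyte, eosinophil and mast cell, lymphoid, and erythroid and megakaryocyte genes, those with the largest changes and those that mark a cell type. The 8 genes most like the members' mean profile were also named. Members and lists were chosen with earlier results of these data known. Genes shown for their values across the NUP98-JARID1A lines (Mpo, S100a8, Ms4a3, Stfa3, Stfa2l1, Padi4) were picked after their values were seen. So were genes behind small counts (Csf3r, Srgn, Gfi1, Klf5, Gata3, Klf4, Fcgr1, Ms4a2) and the regulators ranked by likeness. Promoters came from RefSeq (GRCm38.p6), which was also used to check gene names. Alternatives were another choice of probe set, filter, centring, prior, arrays in the fit and line block, and leaving out single arrays. For SGC0946 the arrays left out were both treated ones and untreated lines 1, 3 and 4. For NUP98-JARID1A against untreated RH-RAS they were each of the lines compared. For MLL-AF9 they were untreated line 4, or each NUP98-JARID1A line.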

Additional observations from a re-analysis of the deposited data

Results flagged for a closer look

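Ngp was uneven among the untreated RH-RAS lines: line 3 read 5.10, against 5.44 in line 1, 5.45 in line 2 and 5.47 in line 4. The gap between line 3 and its nearest neighbour took 0.915 of the group's whole range, past Dixon's 95% limit for 4 samples. The 10 members were each examined in this group, and chance passes that limit in about 1 of 20 such groups. All 4 values lay below the array median.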

How the results depend on the processing

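Mmp8 was called for SGC0946 under every alternative except those that left 1 array in an arm, where the lone array is assumed to vary like the other groups: the count of members called was 0 to 1 over the arrays left out. The count over all genes was 1435, with 28 to 1483 when an array was left out, 867 with the line as a replicate block, 3747 with only the 4 arrays of lines 1 and 3, and 2746 with only the 6 RH-RAS arrays (added after seeing the data). With all 4 untreated lines as control, Ngp was -0.053 and Mmp9 -0.038. Without single arrays, changes near 0 that turned sign ranged from -0.124 to 0.209 for Ngp, -0.028 to 0.272 for Mmp9, -0.025 to 0.36 for Cd177, -0.119 to 0.370 for Stfa3, -0.339 to 0.050 for Gp9 and -0.073 to 0.35 for Trem1; the cause was not tested. The NUP98-JARID1A count of members was 7 to 10. Cd177 left the test under a filter of at least 3 arrays, and Mmp9 passed with the probe set of largest variance. A fit with line 2 as the only NUP98-JARID1A array was added after seeing the data. Its spread came from the 4 untreated RH-RAS lines alone, so no call is drawn from it. The members differed there by 0.14 (Mmp9) to 4.95 (Lcn2) on the log2 scale. NUP98-JARID1A and RH-RAS numbers share only a number (deviations correlated at -0.05, -0.02 and 0.07); with the number as a block 8 members and 4938 genes passed, against 6112 without, and Gp9 did not (adjusted p = 0.110). The MLL-AF9 count against NUP98-JARID1A was 4 to 7 when a NUP98-JARID1A line was left out (10.1% to 11.2% of all genes, against 9.78% with all 3 lines), and against RH-RAS 9 in each alternative run. Signal near the bottom of the array limits what can be said of RH-RAS levels.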
